A study of Mus musculus with 14 samples.

Results

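The 10 immediate early genes, named Fos, Fosb, Jun, Junb, Jund, Egr1, Atf3, Ier2, Nr4a1 and Dusp1, were described by cell class, by library and by genotype in single-cell RNA-seq of whole mouse spinal cord. They were taken by symbol from the feature tables, were chosen as a set because warm enzymatic dissociation is known to induce them, and are 10 of the 55335 genes listed. All 10 were detected in every class and library tested, and all 10 passed the filter on low counts in each class. The study asked what the myeloid receptor Clec7a does for microglial immune responses in an ALS model at a mid-disease stage.

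The 14 libraries came from mice of P115-120 day, a label given in days, in 4 groups. The SOD1 group (3 libraries) carried the human SOD1 transgene with the G93A mutation, strain B6SJL-Tg(SOD1*G93A)1Gur/J. The Clec7aKO group (4 libraries) lacked Clec7a, strain B6.129S6-Clec7atm1Gdb/J. The SOD1_Clec7aKO group (4 libraries) had the transgene and lacked Clec7a, and the nTg group (3 libraries) had neither change; the design text calls the latter WT. The strain labels of the groups name different backgrounds (B6SJL and B6.129S6), and whether littermates were compared is not given in the sources used here. All cords were perfused with cold PBS, digested with enzymes in a warm water bath, passed through pipettes and a strainer, cleared of myelin with beads and kept on ice, so no group was spared the warm step and there is no cold-dissociated control. The labels do not say whether libraries of a group are separate animals, so the p-values below measure only the spread between these libraries.

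Immediate early genes are transcribed within minutes of a stimulus, without new protein synthesis, after kinases activate factors already bound at their promoters. Fos and Jun family proteins pair to form the transcription factor AP-1; Egr1 is a zinc finger factor, Nr4a1 an orphan nuclear receptor, Atf3 a stress-induced factor of the ATF/CREB family, Ier2 a nuclear protein of the Ier family, and Dusp1 a phosphatase that switches off MAP kinases. In brain and spinal cord tissue digested warm, microglia and vascular cells are known to induce them during preparation, and the same genes also respond to activity and injury in vivo; the counts do not separate the sources.

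The 250 bases upstream of the annotated start (RefSeq, GRCm38.p6) were examined for 8 of the 10 genes; Egr1 and Ier2 were not in the table. They are shown for 4 genes because these represent the classes of response below: Fos, Jun and Atf3 fell in microglia-like cells of transgenic cords and Nr4a1 did not pass the test there. Sequences read 5′ to 3′ on the gene's strand, and capitals mark letters matched: TGACG or its reverse complement CGTCA, the core that CREB and ATF factors bind, TATAAA, and in Jun TGACATCA, a variant of the AP-1 site.
Fos, chr12:85473640-85473889, plus strand: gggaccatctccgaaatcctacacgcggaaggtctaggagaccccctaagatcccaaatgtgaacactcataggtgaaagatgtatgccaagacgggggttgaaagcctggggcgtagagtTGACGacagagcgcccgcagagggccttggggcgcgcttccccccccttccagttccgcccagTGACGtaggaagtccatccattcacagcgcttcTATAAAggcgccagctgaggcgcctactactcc
Jun, chr4:95052223-95052472, minus strand: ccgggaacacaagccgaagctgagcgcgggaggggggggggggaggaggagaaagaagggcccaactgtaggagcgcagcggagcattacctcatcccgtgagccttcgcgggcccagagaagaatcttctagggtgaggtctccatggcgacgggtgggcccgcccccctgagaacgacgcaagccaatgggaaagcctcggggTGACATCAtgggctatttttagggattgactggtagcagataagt
Atf3, chr1:191183334-191183583, minus strand: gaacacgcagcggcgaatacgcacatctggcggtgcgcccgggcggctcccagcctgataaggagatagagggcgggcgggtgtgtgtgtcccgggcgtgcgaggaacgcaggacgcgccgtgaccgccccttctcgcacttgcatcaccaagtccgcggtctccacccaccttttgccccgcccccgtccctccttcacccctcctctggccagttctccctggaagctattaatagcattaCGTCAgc
Nr4a1, chr15:101266596-101266845, plus strand: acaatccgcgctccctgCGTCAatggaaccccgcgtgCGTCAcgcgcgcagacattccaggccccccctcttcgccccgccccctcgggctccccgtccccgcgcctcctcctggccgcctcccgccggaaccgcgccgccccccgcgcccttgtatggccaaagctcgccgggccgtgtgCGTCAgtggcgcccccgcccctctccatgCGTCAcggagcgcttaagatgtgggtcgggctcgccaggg
The Fos window held TGACG 129 and 66 bases before the start and TATAAA 33 bases before it. The Jun window held TGACATCA 45 bases before the start and no TGACG. The Atf3 window belongs to a start inside the annotated gene body, which runs from 191170296 to 191218039, and held CGTCA 7 bases before that start. The Nr4a1 window, also inside its gene body (101254269 to 101274795), held CGTCA at 4 places, 233, 213, 69 and 40 bases before the start. The Dusp1 window also lies inside its gene body (26505590 to 26562128). The Jund window (chr8:70697489-70697738) ends before the annotated gene, which starts at 70698949, and does not adjoin it. Its lack of matches therefore does not describe the sequence next to that start. Over both strands TGACG was in 6 of the 8 windows (Fos, Fosb, Junb, Atf3, Nr4a1 and Dusp1) and in 17.8% of 32851 promoters. TGACGTCA, which contains TGACG, was in the Dusp1 window alone among the 8 and in 1.55% of promoters. TGACATCA was in 2.93% of promoters, TATAAA in 12.4%, TGACTCA in 4.46% and in none of the 8, and the CArG box, searched by name, in 1.47% and in none of the 8. TGACG and TGACATCA were added to the search after the sequences had been looked at, and a match is a description of letters only.

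Of 108892 barcodes 89225 were kept, with between 28819852 and 141204910 UMIs per library. Median mitochondrial shares ran from 0.889% to 4.60%, and no pair of libraries shared more than 0.474% of the barcodes of the smaller one. Clec7a itself matched the labels in all 14 libraries: 665.7 to 716 CPM (UMIs of the gene per 1000000 UMIs) in SOD1, between 12.9 and 28.4 in nTg, between 1.61 and 2.57 in SOD1_Clec7aKO and between 0.654 and 1.48 in Clec7aKO. Cells fell into 39 clusters, of which 6 named classes had enough cells in every library to be tested: 51642 microglia-like, 9937 endothelial-like, 7659 ependymal-like, 5754 astrocyte-like, 3920 oligodendrocyte precursor-like (OPC-like) and 1748 mural-like cells. SOD1_Clec7aKO replicate 4 held only 28 ependymal-like and 33 astrocyte-like cells. Below, a level is UMIs summed over the cells of a class in 1 library, given as CPM with TMM scaling, unless another scale is named; genes are compared with themselves, not with each other.

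Among the 6 classes tested, immediate early genes were highest in microglia-like and vascular cells and lowest, for most members, in astrocyte-like cells. Atf3 was lowest in OPC-like cells in 11 of 14 libraries. Junb, a Jun family partner in AP-1, ran from 2839 to 7622 CPM (median 4680) over the 14 microglia-like sums. It ran from 710.4 to 2997 (median 1945) in endothelial-like sums and from 30.4 to 579 (median 107) in astrocyte-like sums. Junb, Atf3 and Ier2 were at their highest in the microglia-like sum of 14 of 14 libraries, and Egr1 in 13 of 14. Dusp1 was highest in endothelial-like cells in 11 libraries, with a median of 1745 CPM there against 1259 in microglia-like cells, and Jund in 9. Jun was highest in microglia-like cells in the 7 libraries without the transgene and in endothelial-like cells in the 7 with it. Each microglia-like Jun sum without the transgene was above the highest endothelial-like one, 4875 CPM. Nr4a1 was highest in mural-like cells in 7 libraries, with medians of 218 CPM in mural-like, 188 in microglia-like and 167 in endothelial-like cells, neighbours that did not differ beyond their spread.

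**Figure D1:**
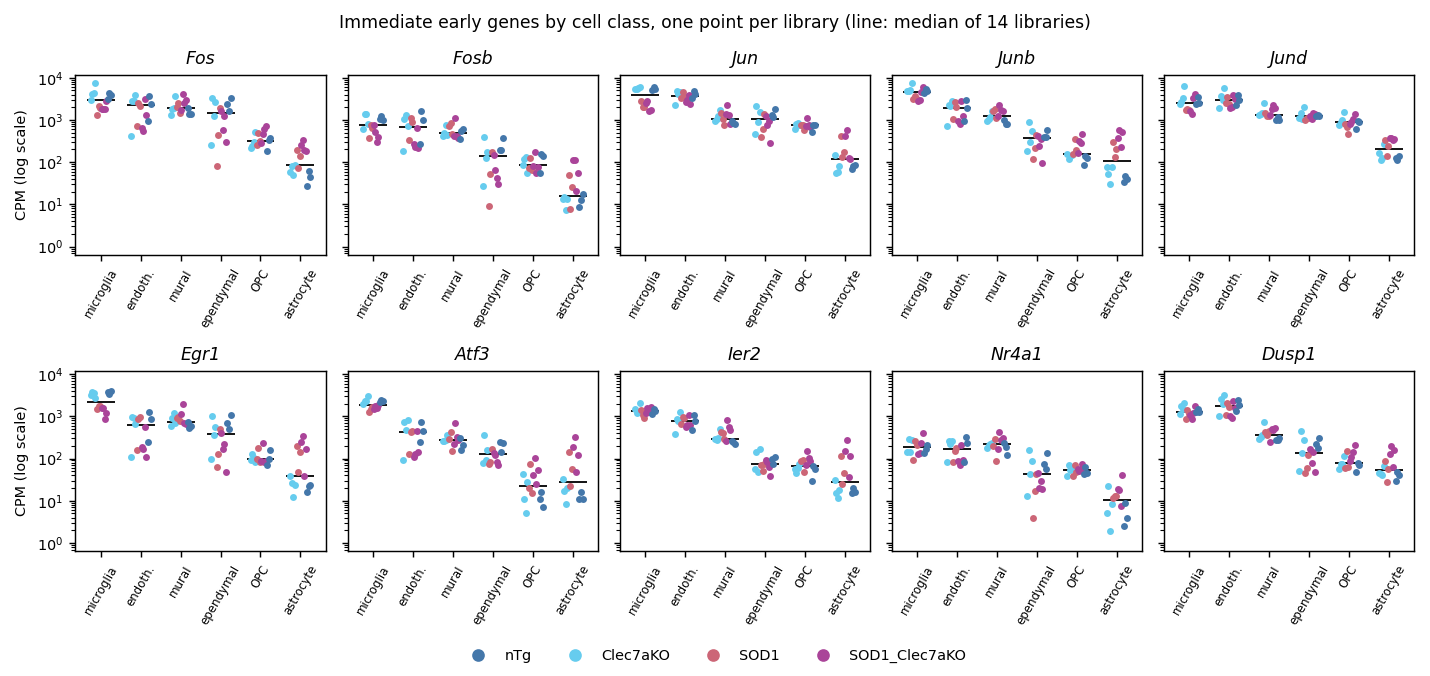
Level of each immediate early gene in 6 cell classes, CPM on a log scale; each point is 1 of 14 libraries coloured by group, and the line is the median. Junb, Atf3 and Ier2 are highest in microglia-like cells in every library, while Dusp1 has its highest median, 1745 CPM, in endothelial-like cells.

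The same libraries gave both members of each pair of classes, so the difference between classes was tested within libraries with an exact two-sided paired permutation test on log2(CPM + 1), adjusted by Benjamini-Hochberg over 50 comparisons. TMM factors were set within each class. In microglia-like sums they were 0.772 to 0.932 in transgenic and 1.04 to 1.24 in other libraries, and in endothelial-like sums 0.935 to 1.07. Differences and orders between classes carry this scaling, which differs by genotype. All 10 genes were higher in microglia-like than in astrocyte-like, ependymal-like and OPC-like cells. Each had the smallest p this exact permutation test allows, 0.000122 before adjustment and 0.00016 after it, except Fos against ependymal-like cells (higher in 13 of 14 libraries, adjusted p = 0.00031). Against astrocyte-like cells the difference ran from 3.62 ± 1.00 (SD, log2, 14 libraries) for Jund to 5.61 ± 1.88 for Atf3. Against endothelial-like cells 5 genes were higher in microglia-like cells. These were Atf3 (2.67 ± 0.96), Egr1 (2.42 ± 1.26), Junb (1.45 ± 0.65), Fos (0.83 ± 0.93) and Ier2 (0.83 ± 0.55). Dusp1 was lower in microglia-like than in endothelial-like cells by the same exact test (-0.35 ± 0.34, higher in microglia in 3 of 14 libraries, adjusted p = 0.0042). Jun (-0.03 ± 0.72), Jund (-0.19 ± 0.38), Fosb (0.40 ± 0.92) and Nr4a1 (0.36 ± 0.74) did not pass. The mean for Jun pools opposite signs. Jun was higher in microglia-like cells in the 7 libraries without the transgene and lower in the 7 with it. Against mural-like cells 7 genes were higher, and Fos, Fosb and Nr4a1 did not pass.

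Shares of cells were compared after cells were thinned to 2000 UMIs. Shallower cells were left out, among them 1787 microglia-like, 1043 astrocyte-like and 403 mural-like cells, and mural-like values rest on 13 libraries. A Junb UMI was present in 94.0% of microglia-like cells on average over libraries, in 70.9% of endothelial-like, 38.4% of mural-like, 30.6% of ependymal-like, 22.7% of OPC-like and 17.3% of astrocyte-like cells. Fos did not keep the order of the sums: it was present in 32.6% of mural-like and 43.5% of ependymal-like cells. Fos was present in 84.8% of microglia-like and 12.8% of astrocyte-like cells, and Jund in 91.4% and 28.3%. Nr4a1 was sparse in all classes, at 21.8% of microglia-like and 1.25% of astrocyte-like cells. In droplet data free RNA puts UMIs into cells that do not make the transcript, and no class here is known to lack these genes, so no share stands for background alone. The astrocyte-like share was the lowest for 9 of the members, and for Atf3 it was 6.20% against 3.86% in OPC-like cells. Of the 10 genes a microglia-like cell held a UMI of 7.53 ± 0.56 (SD, 14 libraries), an endothelial-like cell 5.91, an ependymal-like cell 3.24, a mural-like cell 3.07, an OPC-like cell 2.39 and an astrocyte-like cell 1.12. Microglia-like cells of the nTg (7.97 ± 0.09) and Clec7aKO (8.08 ± 0.19) groups held more of the 10 than those of SOD1 (7.06 ± 0.29) and SOD1_Clec7aKO (7.01 ± 0.27), with no overlap between transgenic and non-transgenic libraries. Thinning gives each cell the same UMI total and carries no TMM scaling. With CPM scaled by library size alone, the median log2 difference of all genes in microglia-like cells was -0.44 in SOD1 against nTg. It was -0.51 in SOD1_Clec7aKO against Clec7aKO. No value over all genes is set beside these counts, so they are no result about the members alone.

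Classes too thin to test carried the genes as well. Over all libraries together, border-associated macrophage-like cells (533 cells) gave Fos at 3719 and Jun at 4121 CPM without TMM scaling. They gave Dusp1 at 2161 and Junb at 3278. Microglia-like sums averaged 3150 for Fos, 3908 for Jun, 1348 for Dusp1 and 4540 for Junb with TMM scaling. The scales differ, so no order between these classes is given. Neuron-like cells (945 cells) gave Fos at 181.5 and Jun at 326, without TMM scaling. By group their Fos ran from 74.3 in nTg to 245 in Clec7aKO, and their Jun from 65.6 to 445. Over the 12 libraries with at least 20 such cells Jun ran from 50.9 to 990. CSF-contacting neuron-like cells (208 cells) gave Fos at 1468, from 738 in SOD1 to 2096 in Clec7aKO. T and NK-like cells (754 cells) gave Junb at 3315, from 2856 in SOD1_Clec7aKO to 4908 in nTg (22 cells). The pooled values are sums over cells of unequal libraries, given without a test.

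In microglia-like cells 4 of the 10 genes were lower in SOD1 than in nTg cords: Fos, Jun, Egr1 and Atf3. Lower calls were made for 13.1% of the 16625 genes tested in that comparison, and none of the 10 was called higher, against 19.7% of all genes. Jun, the AP-1 partner of Fos, was at 5085, 5873 and 5536 CPM in the nTg libraries and at 2882, 2004 and 2057 in the SOD1 libraries. The highest SOD1 library was thus below the lowest nTg library, and the log2 difference was -1.25 ± 0.23 (SE; adjusted p = 0.00105, edgeR quasi-likelihood test, Benjamini-Hochberg over all genes tested, as for all adjusted p-values by genotype below). Egr1 was at 3677, 3344 and 3976 CPM in nTg and at 1527, 1778 and 1716 in SOD1. The groups did not overlap and differed by -1.13 ± 0.23 (adjusted p = 0.00217). Fos was at 3174, 4239 and 3921 CPM in nTg and at 1334, 2127 and 1941 in SOD1, again with no overlap, a difference of -1.07 ± 0.31 (adjusted p = 0.0156). Atf3, which is itself induced by stress and represses AP-1 targets in some settings, was at 2184, 2463 and 2260 CPM in nTg and 1235, 1519 and 1676 in SOD1. Its difference was -0.64 ± 0.19 (adjusted p = 0.0208).

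The remaining 6 genes did not pass in SOD1 against nTg. Fosb (975 to 1241 CPM in nTg, 384 to 767 in SOD1) had a difference of -0.85 ± 0.36 with adjusted p = 0.086. Jund (2379 to 3437 against 1676 to 1853) and Junb (4388 to 5420 against 3202 to 3774) also did not overlap between the groups, with differences of -0.67 and -0.52. Ier2 (1156 to 1468 CPM against 932.1 to 1396), Dusp1 (1245 to 1519 against 857 to 1412) and Nr4a1 (134 to 205 against 93.4 to 265) overlapped, and Nr4a1 alone had a positive difference, 0.15 ± 0.45. The share of thinned microglia-like cells with a Jun UMI was 93.2% ± 1.1 (SD, n = 3) in nTg and 83.4% ± 3.4 (n = 3) in SOD1. For Fos it was 90.8% ± 1.8 and 78.2% ± 6.7, and for Junb 93.9% ± 0.6 and 92.8% ± 1.2. Thinned shares carry no TMM scaling, and on library size alone the median of all genes was -0.44 in this comparison. Libraries of the groups did not overlap for 7 of the 10 members against 53.7% of all genes, a share near the background and so no result about the members. The median log2 difference over the members was -0.65, beside 0.01 over all genes tested.

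The same direction was present where Clec7a was absent. Between SOD1_Clec7aKO and Clec7aKO microglia-like cells 5 genes were lower: Fos, Fosb, Jun, Egr1 and Atf3, against lower calls for 21% of all genes; none was higher, against 25.7%. Jun was at 5402, 5396, 5713 and 6058 CPM in Clec7aKO and at 2506, 2860, 1590 and 1750 in SOD1_Clec7aKO. No transgenic library reached the lowest non-transgenic one, and the difference was -1.37 ± 0.20 (adjusted p = 9.3e-05). Egr1 was at 3238, 3777, 3535 and 2656 CPM in Clec7aKO and at 1598, 1620, 845 and 1183 in SOD1_Clec7aKO, a difference of -1.33 ± 0.20 (adjusted p = 0.000127). Fos was at 3017, 4131, 4443 and 7412 CPM against 1797, 1830, 1862 and 2867, a difference of -1.19 ± 0.27 (adjusted p = 0.00239). The highest Fos library of each group was its replicate 4, and the groups still did not overlap. Atf3 was at 1914, 2332, 2265 and 3017 CPM against 1518, 1808, 1555 and 1902 and did not overlap, with a difference of -0.49 ± 0.17 (adjusted p = 0.0272). Fosb was at 626.6, 1404, 1370 and 811 CPM against 763, 522, 307 and 398; the groups overlapped and the difference was -1.08 ± 0.32 (adjusted p = 0.0119). Junb, Jund, Dusp1, Ier2 and Nr4a1 did not pass. Libraries did not overlap for 4 of 10 members against 36.5% of all genes, and the members' median was -0.50 beside 0.01 for all genes.

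**Figure D2:**
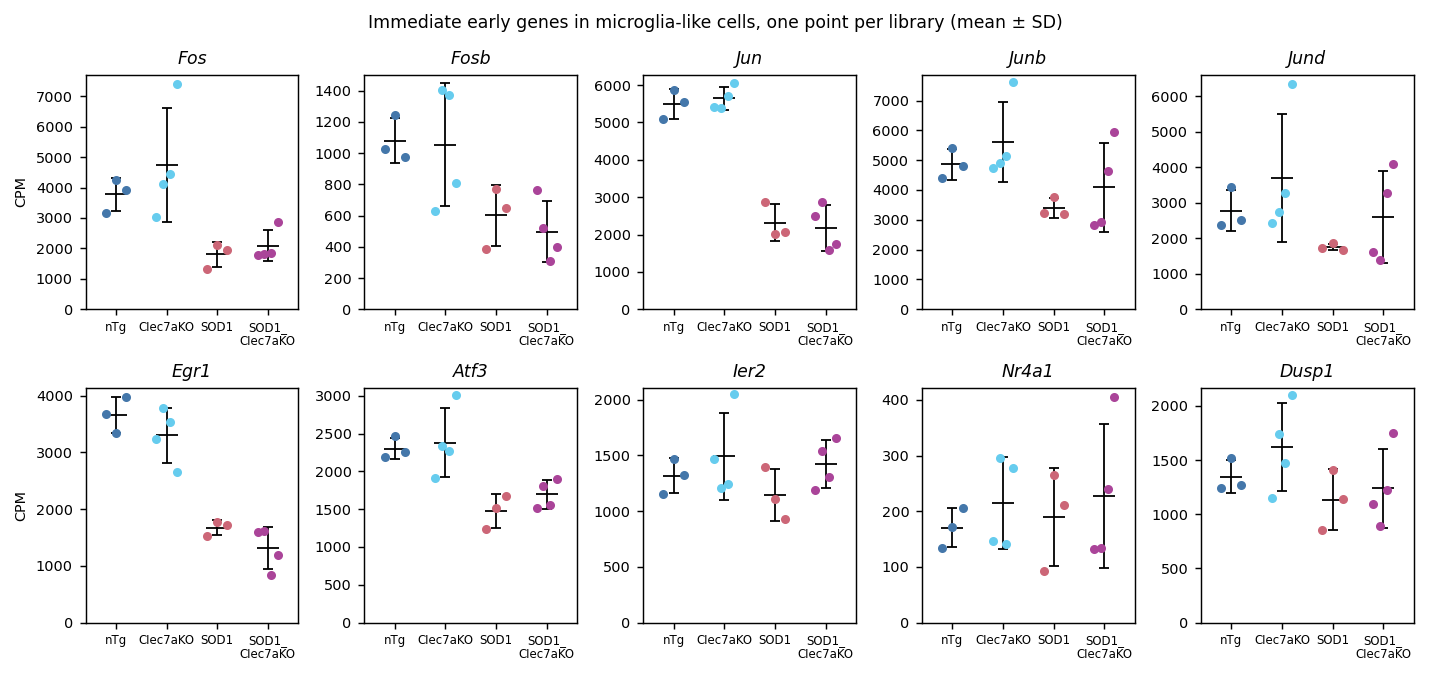
Levels in microglia-like cells, CPM on linear axes, 1 point per library with the mean ± SD of each group. Jun and Egr1 lie lower in every library of the 2 transgenic groups than in any library of the 2 groups without the transgene, and Nr4a1 overlaps across the groups.

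Loss of Clec7a was not accompanied by a call for any member in any class. In microglia-like cells with the transgene the differences between SOD1_Clec7aKO and SOD1 ran from -0.35 (Egr1, 95% interval -0.77 to 0.07) to 0.57, and the lowest adjusted p was 0.496. For Jun the difference was -0.09, with an interval from -0.51 to 0.33, and for Fos 0.21, from -0.34 to 0.77. Without the transgene they ran from -0.15 to 0.41, and every adjusted p was 1. None of the members had an unadjusted p under 0.05 in microglia-like cells in either comparison, where 1895 and 422 of all 16625 genes had one. In astrocyte-like cells with the transgene all 10 differences between SOD1_Clec7aKO and SOD1 were positive, with a median of 0.92 beside 0.00 for all genes. There 6 of 10 had an unadjusted p under 0.05, beside 1028 of all 12691 genes tested. The lowest adjusted p of the members was 0.286 (Dusp1, 1.26 ± 0.34). The summed microglia markers of those astrocyte-like cells ran from 1629 to 10301 CPM where Clec7a was absent and from 1475 to 3860 where it was present. In astrocyte-like cells with at most 0.1% of their UMIs from the markers, 6 of 10 differences were positive, with a median of 0.09 and 0 unadjusted p-values under 0.05. The transgene's effect did not differ measurably between backgrounds: the difference between the contrasts was -0.13 for Jun (interval -0.72 to 0.47) and -0.12 for Fos (-0.90 to 0.67), with adjusted p = 0.999 for every member. The lower bound for Fos, -0.90, comes near the size of the transgene's own difference of -1.07. Few genes of any kind were called for loss of Clec7a in these cells, 0.00602% higher and 0.012% lower with the transgene and 0.00602% and 0.0241% without it. In the other classes the shares of all genes called for loss of Clec7a were also small. With the transgene they were 0.00767% lower in endothelial-like, 0.0131% higher and 0.0261% lower in ependymal-like, 0.0158% lower in astrocyte-like and 0.00752% higher in OPC-like cells. Without the transgene they were 0.0261% lower in ependymal-like cells and 0.00752% in each direction in OPC-like cells. For the difference between the contrasts the 1 share above 0 was 0.00653%, in ependymal-like cells.

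The mixture of microglial states differed between the same groups. Cluster 0, led by the homeostatic genes P2ry12, Cx3cr1 and Tmem119, held 83.0% ± 4.3 (SD) of microglia-like cells in nTg and 83.0% ± 2.2 in Clec7aKO. It held 3.25% ± 3.68 in SOD1 and 3.18% ± 2.49 in SOD1_Clec7aKO, where clusters led by Spp1, Gpnmb, Il1b or Cst7 were the majority. The 10 genes and the other listed genes, 71 in all, were kept out of the genes that define the clusters. A lower class sum can hold fewer cells of the cluster 0 state or less RNA of the gene per cell, which these sums alone cannot tell apart. Within libraries, on raw CPM and as a description, Jun in cluster 7 (led by Spp1, Gpnmb, Lyz2 and Lgals3) averaged 1334 against 5252 in cluster 0 of the same libraries, a log2 difference of -1.97 ± 0.20 (SD, lower in 7 of 7 libraries). The difference of Fos was -1.82 ± 0.31 and that of Egr1 -2.05 ± 0.20 in cluster 7 against cluster 0, while the median of all genes was -0.30. Jun was as low in cluster 8 (-2.02) and cluster 4 (-2.01, lower in 9 of 9 libraries), and nearer to cluster 0 in clusters 2 (-0.88) and 12 (-0.87), the latter led by interferon-response genes. Jun, Fos and Egr1 were each lower than in cluster 0 in every library compared, in all 9 clusters that could be compared. Nr4a1 did not show one direction over those clusters. Its difference from cluster 0 was -1.23 in cluster 13 (lower in 10 of 10 libraries), -0.82 ± 0.73 in cluster 7 (6 of 7), -0.37 in cluster 2 (8 of 12) and -0.22 in cluster 19 (5 of 8). It was between -0.07 and 0.09 in clusters 12, 15 and 1, 0.19 in cluster 8 (lower in 3 of 7) and 0.38 ± 0.76 in cluster 4 (2 of 9).

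Some clusters of the class have leading genes that go against its name. Clusters 7 and 8, 8669 cells nearly all from transgenic cords, hold Ms4a7, listed here as a border-associated macrophage gene, and no listed microglia marker among the 10 genes that lead them against the rest. Cluster 13, 1992 cells, is led by the haemoglobin genes Hba-a2, Hbb-bt, Hbb-bs and Hba-a1 with 1 microglia marker, P2ry12, among the 10, and its median depth was 0.32 of that of its libraries. It made up 12.4% ± 5.3 of microglia-like cells in nTg and 10.3% ± 4.1 in Clec7aKO, against 0.783% in SOD1 and 0.367% in SOD1_Clec7aKO. All 3 were named microglia-like by genes high against the lower quartile of clusters. Without clusters 7 and 8, 4 and 4 genes were lower in the 2 transgene comparisons, against 11.4% and 19% of all genes. Without cluster 13, 4 and 5 were lower (13.3% and 20.8%), and without all 3 clusters 4 and 4 (11.5% and 18.7%), where Jun differed by -1.18 ± 0.26 and -1.26 ± 0.22. Atf3 was the gene no longer called in SOD1_Clec7aKO against Clec7aKO when clusters 7 and 8, or all 3, were left out. These restrictions were chosen after seeing the data.

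**Figure D3:**
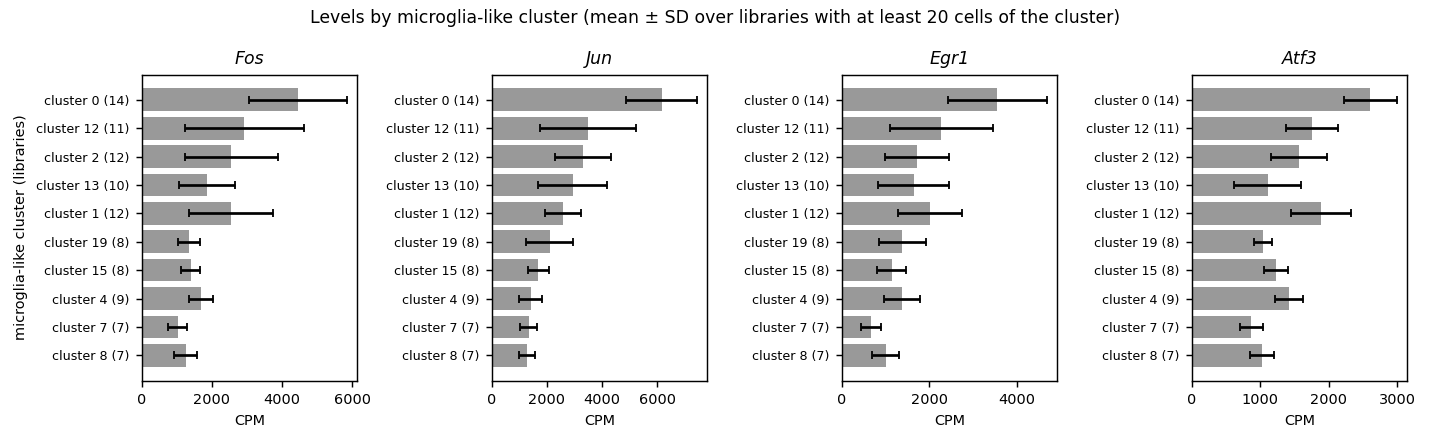
Mean level ± SD over libraries of Fos, Jun, Egr1 and Atf3 in each microglia-like cluster, raw CPM on linear axes; bars start at 0. Cluster 0 stands above the clusters that make up most microglia-like cells of transgenic cords, and Jun averages 1334 CPM in cluster 7.

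Restricted to cluster 0, no member was called in either comparison; lower calls were made for 0% and 0.0782% of all genes and higher calls for 0.196% and 0.61%. There the difference was -0.24 ± 0.22 for Jun, -0.56 ± 0.28 for Egr1, -0.43 ± 0.27 for Fos and -0.41 ± 0.19 for Atf3 in SOD1 against nTg. It was -0.52 ± 0.19, -0.72 ± 0.24, -0.66 ± 0.23 and -0.24 ± 0.17 without Clec7a, with the lowest adjusted p of the 10 at 0.179 (Fosb). Transgenic libraries gave 44 to 465 and 34 to 320 cells of cluster 0, so these sums are thin.

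The calls moved with some of the scaling and sample choices. When CPM were scaled by library size alone, 9 genes were lower in each comparison, while the median of all genes shifted to -0.44 and -0.51 and lower calls rose to 34.7% and 47% of all genes. Without nTg replicate 2 the lower calls in SOD1 against nTg were 2 (8.44% of all genes). Libraries with Xist, the mark of female cells, were unevenly spread: 0 of 3 in SOD1, 2 of 3 in nTg, 1 of 4 in SOD1_Clec7aKO and 1 of 4 in Clec7aKO. With Xist as a covariate Jun and Egr1 were the 2 genes called in SOD1 against nTg (8.54% of all genes), and 5 were called without Clec7a (20.4%). Median mitochondrial shares of microglia-like cells were 0.716% to 1.54% in transgenic and 0.98% to 2.12% in other libraries. With that share as a covariate 4 and 5 genes were called, against 12.5% and 19.2% of all genes.

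Libraries numbered 13, 15 and 16 in the labels differed from the other 11 in how the members were balanced. In their microglia-like cells Junb was at 4623 to 7622 CPM against 2839 to 5420 in the others, and Jund at 3270 to 6358 against 1401 to 3437. Egr1 was at 845 to 2656 against 1527 to 3976. They are 2 SOD1_Clec7aKO and 1 Clec7aKO libraries. With those 3 left out, chosen after seeing the data, 7 genes were lower in SOD1 against nTg (17.3% of all genes) and 5 in SOD1_Clec7aKO against Clec7aKO (17.5%), the latter without Atf3 and Fosb and with Junb and Jund.

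Some members varied together from library to library within groups and others did not. Over the 14 microglia-like sums, after group means were subtracted from log2(CPM + 1), Fos correlated with Atf3 (Pearson r 0.90, Spearman rho 0.86, r 0.79 without the 2 libraries farthest from the median) and with Dusp1 (r 0.88, rho 0.92, r 0.85). Fos and its AP-1 partner Jun had r -0.23, and Egr1 and Jund r -0.77. Among 5603 genes outside the lists at 20 CPM or more, the 5 most like Fos were Dync1li1, Lrp12, Zfp598, Ppm1h and Rcsd1 (r 0.92 to 0.90). The 5 most like Jun were Adap2, Angel2, Vps18, Brpf1 and Fam53b (r 0.95 to 0.91). Those most like Egr1 were Usp33, Stard9, Tbl1xr1, Kdm2a and Zmiz1 (r 0.97 to 0.95), and those most like Atf3 were Zfp598, Sgk3, Dync1li1, Ubfd1 and St13 (r 0.87 to 0.85). These correlations share libraries and depth and are given as descriptions with no p.

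Other early response genes moved in both directions. Of 53 such genes, 51 were tested in microglia-like cells, with 8 higher and 12 lower in SOD1 than nTg and a median log2 difference of -0.13. The higher calls were 15.7% of the list against 19.7% of all genes, and the lower calls 23.5% against 13.1%. Without Clec7a 8 were higher and 20 lower, with a median of -0.36; the shares were 15.7% against 25.7% of all genes and 39.2% against 21%. The higher calls were thus fewer than the background share in both comparisons and are no result about the list. Among zinc finger factors 3 of 6 and 5 of 6 were lower, beside the same 13.1% and 21%. Klf2, a factor that restrains inflammatory activation, was at 2108 CPM in nTg and 426.3 in SOD1 (-2.31 ± 0.35, adjusted p = 0.000197), and at 3136 in Clec7aKO and 592.2 in SOD1_Clec7aKO (-2.41 ± 0.30). Klf4 was lower by -1.61 ± 0.28 and -1.91 ± 0.25. Ier5, of the Ier family, was lower by -1.23 ± 0.30 in SOD1 against nTg, and Klf6 by -1.46 ± 0.17 without Clec7a. Batf (-1.18 and -1.30) and Mafk (-1.06 and -1.20), partners of AP-1, were lower in both.

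Among the genes called higher were orphan nuclear receptors of the Nr4a family: Nr4a2 by 1.35 ± 0.30 and 1.11 ± 0.26 in the 2 comparisons, at 1.68 CPM in nTg and 4.21 in SOD1. Nr4a3 was higher by 1.41 ± 0.41 in SOD1 against nTg. Dusp5 (0.98 ± 0.31) and Ier5l (0.95 ± 0.35, and 1.04 ± 0.30 without Clec7a) were higher, as were Mapk3 (1.04 ± 0.17) and Dusp2 (1.00 ± 0.39) without Clec7a. Npas4 was called higher in both, at mean levels under 1 CPM (0.677 in SOD1 and 0.0102 in nTg), so no fold is given. Heat shock genes, chaperone genes that the same warm step can raise, were 1 higher and 2 lower of 10 in SOD1 against nTg (Hspe1 0.78, Hspa1a -1.42, Dnajb1 -1.13), shares near or under those of all genes (19.7% higher and 13.1% lower). Without Clec7a they were 1 higher and 6 lower (Hspa1b -3.75, Hspa1a -3.05, Dnajb1 -1.17), beside 25.7% and 21% of all genes.

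In astrocyte-like cells, where levels of 9 members were lowest in most libraries, the members had the opposite direction. SOD1 was higher than nTg for 7 of 10 genes (background 17.6% of 12691 genes), and SOD1_Clec7aKO than Clec7aKO for 9 of 10 (18.3%). None was lower, against 14.8% and 15.1% of genes. Junb was at 34.1, 47.3 and 40.0 CPM in nTg and at 303, 135 and 204 in SOD1. All SOD1 libraries exceeded all nTg libraries, and the difference was 2.40 ± 0.36 (adjusted p = 8.0e-05). In the other pair it was at 78.6, 51.9, 30.4 and 76.4 CPM in Clec7aKO and 380, 579, 230 and 512 in SOD1_Clec7aKO, a difference of 2.83 ± 0.32 (adjusted p = 3.7e-06). Egr1 differed by 2.62 ± 0.54 and 3.04 ± 0.48, Atf3 by 2.49 ± 0.59 and 3.12 ± 0.51 and Fos by 1.60 ± 0.32 and 1.87 ± 0.28. Jun was at 67.8, 80.5 and 83.7 CPM in nTg and 416, 132 and 177 in SOD1 (1.63 ± 0.50, adjusted p = 0.0186). Dusp1 was called in the second comparison (1.49 ± 0.31) and not in the first (0.54 ± 0.35), and Nr4a1 in neither. Libraries did not overlap for 8 of 10 members against 49% of genes, and for 7 of 10 against 24.7%. The members' medians were 1.61 and 2.35. Heat shock genes summed to 4120 to 5104 CPM in SOD1 against 1784 to 1940 in nTg. They were at 2817 to 6081 in SOD1_Clec7aKO against 1937 to 2414 in Clec7aKO. Median mitochondrial shares were 7.72% to 8.98% against 9.05% to 10.1%, and 4.03% to 8.99% against 8.10% to 10.8%. What part the heat shock level has in the differences was not tested.

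**Figure D4:**
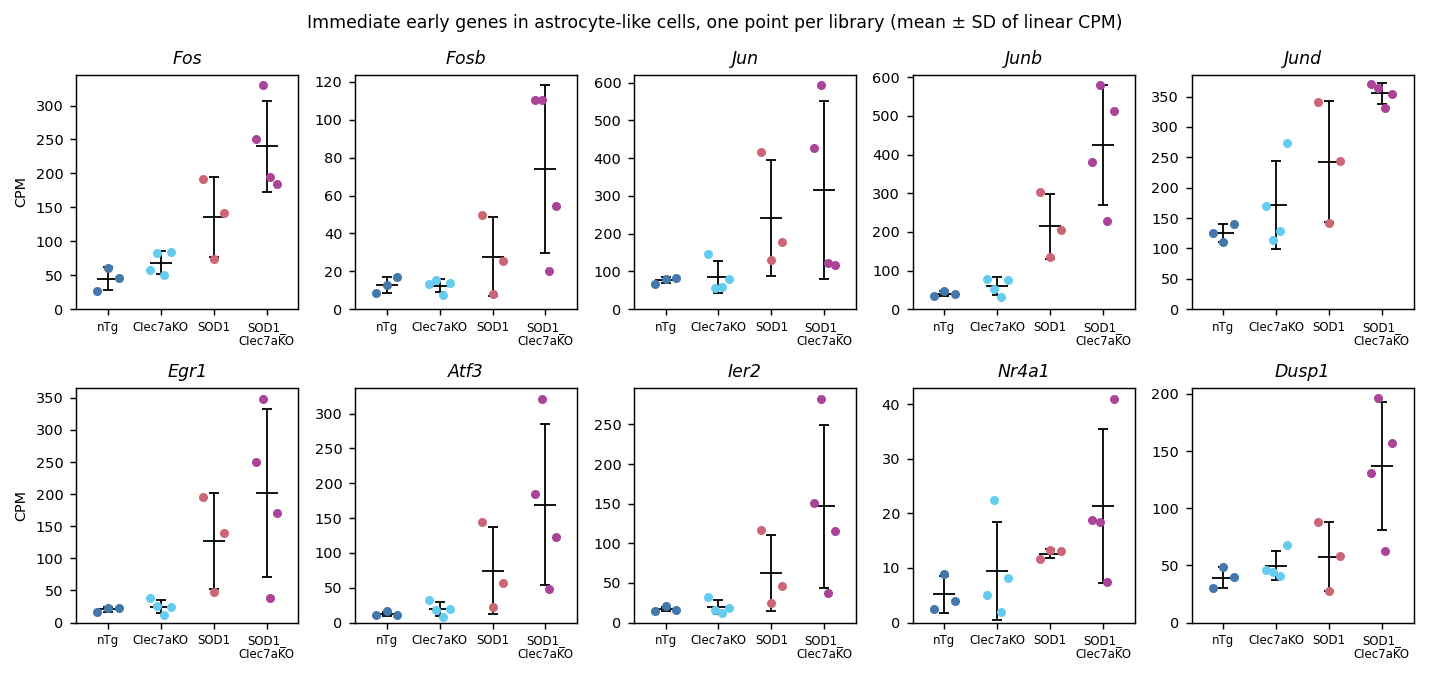
Levels in astrocyte-like cells, CPM on linear axes, 1 point per library with mean ± SD of each group. Junb is at 135 CPM or more in each SOD1 library and at 47.3 or less in each nTg library, and SOD1_Clec7aKO replicate 3 is the lowest of its group for several genes.

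Microglia markers moved with these astrocyte-like values, and their part in the result was examined with a covariate and with cells of low marker share. The 12 microglia markers, detected in all 14 astrocyte-like sums, added up to 1475 to 10301 CPM in transgenic libraries and 186 to 905 in the others, where microglia-like sums held 33385 CPM or more. The microglia-like level of Junb multiplied by the ratio of the marker sums of the 2 classes in the same library averaged 402 CPM without TMM scaling in SOD1_Clec7aKO, beside 418 measured in astrocyte-like cells. For Atf3 the product was 192 beside 166 measured. In SOD1 it was 124 beside 240 for Jun and 86.6 beside 240 for Jund. No gene is given in both groups here, so these examples do not tell a difference between genes from one between groups. With the marker level as a covariate no member was called in either comparison (3.21% and 1.17% of all genes were called higher). Since the marker sums of transgenic and other libraries do not overlap, that fit can hardly tell the marker level and the transgene apart. In it 5 and 7 of 10 differences were positive, among them Junb (1.08 ± 0.41 and 1.25 ± 0.46), Fos (1.11 ± 0.49 and 1.26 ± 0.56) and Nr4a1 (2.00 ± 0.94 and 1.99 ± 1.15). Those of Jun (-0.86 ± 0.43 and -1.03 ± 0.48), Ier2 (-0.86 and -0.33) and Atf3 (-0.29 and -0.20) were negative in both comparisons. In cells with at most 0.1% of their UMIs from the markers 7 and 5 were called (background 17.5% and 14.6%), and the marker sums there were 364 to 566 CPM in transgenic libraries and 130 to 245 in the others, still apart. Cluster 14, led by Gfap, Aqp4 and S100a6, made up 77.4% ± 12.5 of astrocyte-like cells in SOD1, 79.6% ± 12.9 in SOD1_Clec7aKO and 10.9% and 10.7% in nTg and Clec7aKO; within it 0 and 7 were called (background 3.19% and 4.94%). The covariate, the low-marker and the cluster 14 fits were chosen after seeing the data. Without SOD1 replicate 1, 4 genes were called in SOD1 against nTg (14.1% of all genes higher). With Xist as a covariate 3 were called there, Junb, Fos and Egr1 (10% higher), and 9 without Clec7a (17.3%). With the mitochondrial share as a covariate 2 were called without Clec7a (3.1% higher).

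In OPC-like cells Junb alone was called, higher in SOD1_Clec7aKO than Clec7aKO (1.11 ± 0.28, adjusted p = 0.0331, background 3.71% higher and 1.3% lower). It was at 163, 314, 288 and 460 CPM against 157, 117, 138 and 149. The replicates of the 2 groups came close without overlapping. In SOD1 against nTg the values were 160, 347 and 191 CPM against 83.5, 143 and 128, a difference of 0.98 ± 0.32 that was not called (adjusted p = 0.15, background 1.36% higher and 0.278% lower). The microglia markers again differed, at 1081 to 2855 CPM in SOD1_Clec7aKO against 144 to 779 in Clec7aKO, and with the marker level as a covariate or in low-marker cells 0 genes were called. The call was also lost without Clec7aKO replicate 1, 2 or 3 and without SOD1_Clec7aKO replicate 2, 3 or 4.

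Endothelial-like, ependymal-like and mural-like cells gave no member past the threshold in any comparison, although levels ranged widely between libraries in the first 2. The genes called in SOD1 against nTg were 0.79% higher and 0.0153% lower in endothelial-like, 0.914% and 0.0588% in ependymal-like and 0.12% higher in mural-like cells. Without Clec7a they were 0.476% and 0.0307%, 1.22% and 0.163%, and 0.506% higher. In ependymal-like cells, which line the central canal, Fos ran from 81.4 to 3371 CPM, a 41.4-fold range, and Egr1 from 48.9 to 1051, a 21.5-fold range. The lowest Fos value is that of SOD1 replicate 1, with 108 ependymal-like cells, and the range is 13.2-fold from the next lowest library, at 255 CPM. The lowest Egr1 value is that of SOD1_Clec7aKO replicate 4, and the range from the next lowest library is 16.4-fold. In SOD1 the ependymal-like Fos levels were 81.4, 428 and 1963 CPM and in nTg 2399, 1672 and 3228, which overlapped. All 10 differences between SOD1 and nTg were negative there, with a median of -1.21 beside -0.01 for all genes. Of the members 4 had an unadjusted p under 0.05, beside 1117 of all 15311 genes tested. The lowest adjusted p of the members was 0.397. The microglia markers and the median mitochondrial share moved with the group, at 607 to 2056 CPM in SOD1 against 110 to 163 in nTg and at 5.97% to 6.86% against 3.75% to 6.04%. In low-marker ependymal-like cells all 10 differences between SOD1 and nTg were again negative (median -1.30). With the marker level as a covariate 9 of 10 were positive (median 0.44), and none was called in either. Libraries of SOD1 and nTg did not overlap for 5 of 10 members against 17.4% of genes. In fits without the filter on low counts 8 genes were lower in SOD1 against nTg, and 7 in the comparison without Clec7a, against 0.63% and 0.673% of all genes. All 10 members had passed the filter, so their own counts were the same in both fits. Leaving it out raised the genes tested from 15311 to 30627, and these calls came only with those added genes. What in the larger fit moved the calls was not tested. The 95% interval of the difference between SOD1 and nTg ran from -3.23 to 0.13 for Fos and from -1.86 to 0.15 for Jun, so each held both 0 and the difference measured in microglia-like cells.

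Endothelial-like cells varied in another way. Fos ran from 424.3 to 3908 CPM, a 9.21-fold range, and was lowest in libraries numbered 1 to 4, which belong to 3 of the groups. The summed level of the 10 genes was 7122 to 10042 CPM in those 4 libraries and 10157 to 23897 in the other 10. In the other classes the sums of libraries 1 to 4 overlapped those of the rest. They were 1844 to 5567 CPM (median 2755) against 2325 to 10366 (5840) in ependymal-like cells, where the lowest Fos level is that of library 1, and 619 to 3146 (2065) against 338 to 1829 (535) in astrocyte-like cells. In microglia-like cells they were 14638 to 24144 (15291) against 15200 to 38363 (25615). The medians were 8814 against 8333 in mural-like and 2377 against 2671 in OPC-like cells. Of libraries 1 to 4, 3 are transgenic (1 SOD1 and 2 SOD1_Clec7aKO) and 1 is Clec7aKO, so genotype and number cannot be fully told apart; what else they share is not in the labels. In endothelial-like cells 9 of 10 differences between SOD1 and nTg were negative, with a median of -0.25 and 0 unadjusted p-values under 0.05. Of all 13034 genes tested 750 had an unadjusted p under 0.05. Between SOD1_Clec7aKO and Clec7aKO all 10 were negative, with a median of -0.71 beside -0.03 for all genes. There 1 unadjusted p was under 0.05, beside 1207 of all 13034 genes, and the lowest adjusted p of the members was 0.503. Between SOD1_Clec7aKO and SOD1 all 10 were also negative, with a median of -0.35. The microglia markers were at 592 to 1208 CPM in SOD1 against 124 to 189 in nTg. They were at 584 to 1066 in SOD1_Clec7aKO against 173 to 556 in Clec7aKO. In low-marker endothelial-like cells the medians were again negative (-0.24 and -0.69). With the marker level as a covariate 10 of 10 differences were positive in both transgene comparisons (medians 2.28 and 0.90). The covariate fit can hardly tell marker level and transgene apart. None was called in either fit. Mural-like cells had 10 of 10 positive differences in both transgene comparisons, with medians of 0.40 and 0.34. The direction was not particular to the transgene. Between Clec7aKO and nTg 10 of 10 were positive (median 0.48), and between SOD1_Clec7aKO and SOD1 9 of 10 (0.35). In SOD1 against nTg libraries of the groups were apart for 5 of 10 members, where they were apart for 11.6% of genes. In the other transgene pair they were apart for 0 of 10, where they were apart for 3.56%. The microglia markers moved with the mural-like transgene differences, at 936 to 2179 CPM in SOD1 against 100.8 to 612 in nTg. They were at 865 to 6735 in SOD1_Clec7aKO against 141 to 1080 in Clec7aKO. In low-marker mural-like cells the differences were again positive for 10 of 10 in both transgene comparisons (medians 0.59 and 0.46). With the marker level as a covariate 7 and 6 were positive (0.19 and 0.11), and none was called in either.

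**Figure D5:**
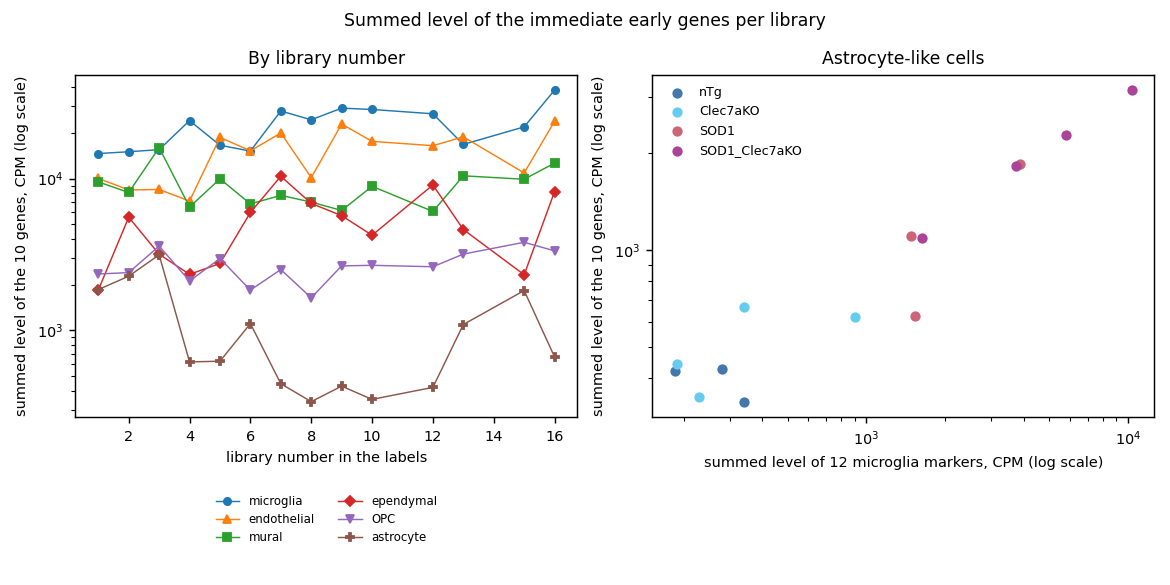
Left, summed CPM of the 10 genes (log scale) by library number for 6 classes. Right, summed CPM of the genes in astrocyte-like cells against that of 12 microglia markers, 1 point per library, log axes; transgenic libraries lie at 1475 CPM or more on the marker axis and the others at 905 or less.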

How the data were processed

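The deposited matrices hold raw UMI counts per gene and barcode, made by the authors with Cell Ranger (software version 3.0.2 per the file headers) on mm10 per the submitters' processing notes, which also name Seurat and DESeq2; the libraries used a 10x 3′ kit per the labels' protocols. The annotation release and the strand setting are not given in the sources used here, so overlapping and antisense genes cannot be told apart.

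Barcodes with at least 1000 UMIs, 500 genes and at most 15% mitochondrial UMIs were kept: 7127 fell to depth and 4963 to the mitochondrial limit. A Scrublet-type score removed a further 7577 as doublets (0.8% per 1000 barcodes). Cells were clustered with scanpy 1.11.5 and igraph 0.11.9 (2000 variable genes without the listed genes, 30 components, 15 neighbours, resolution 1) and named "X-like" by marker genes. The naming rule was changed after it had left the Gpnmb-led clusters 7 and 8 and cluster 13 unnamed: leading genes are now taken by fold over the lower quartile of clusters. Against all other cells, clusters 7 and 8 (8669 cells) are led by genes that include a border-associated macrophage marker, Ms4a7, and cluster 13 (1992 cells) by haemoglobin genes; fits without them are given. A class was tested if each library held 20 cells of it.

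For each library and class the UMI counts were added up, and the sums were tested with edgeR 4.0.16 (R 4.3.3; TMM, filterByExpr, quasi-likelihood, all 14 libraries in 1 fit), Benjamini-Hochberg over all genes of the class, threshold 0.05; SE is the log2 difference divided by the square root of F. On simulated counts for SOD1 against nTg, 40% of genes changed by log2 1 and 94% of those changed by log2 2 were recovered in microglia-like cells (16625 genes), 66% and 99% in ependymal-like cells (15311 genes), and 28% and 91% in mural-like cells (7505 genes). Depth sets the precision: member sums ran from 3 UMIs (Nr4a1, ependymal-like cells of SOD1 replicate 1) to 317506 (Junb, microglia-like cells of SOD1 replicate 2), and counting covers sampling error only. The members and gene lists were chosen with earlier results of these data known. All 10 members are named, and of the pathway list up to 5 called genes per direction with the largest difference. Alternatives included DESeq2 1.42.0, other scalings and filters, covariates, and leaving out each library; those limited to some clusters or cells, the block of libraries 1 to 4, the marker covariate and the omission of libraries 13, 15 and 16 were chosen after seeing the data. Whether replicate numbers pair libraries was checked: correlations of same-numbered libraries ran from -0.17 to 0.37 over 19 pairs in microglia-like cells, so they were not treated as pairs.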

Additional observations from a re-analysis of the deposited data

Results flagged for a closer look

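In groups of 4 libraries, 11 of 120 sets of member levels had 1 library far from the other 3 by a gap test on linear CPM. For independent, normally spread sets that test is tripped in about 1 of 20, or 6 of 120. These sets share libraries and genes that vary together, so the counts cannot be compared and no excess is claimed. All 11 were the highest value of the group, the side that linear CPM favours. In SOD1_Clec7aKO replicate 3, endothelial-like cells had Atf3 at 443 CPM (others 110 to 145), Fosb at 648 (212 to 273), Ier2 at 1105 (547 to 617) and Nr4a1 at 206 (70.6 to 90.2). The other 3 libraries of that group include 2 numbered 1 to 4, where endothelial-like sums were low. In SOD1_Clec7aKO replicate 2, OPC-like cells had Egr1 at 229 CPM (others 85.2 to 88.0) and Jun at 1131 (694 to 764), and mural-like cells had Fosb at 1142 (382 to 417). In microglia-like cells Fos was at 2867 CPM in SOD1_Clec7aKO replicate 4 (others 1797 to 1862) and Junb at 7622 in Clec7aKO replicate 4 (4736 to 5151). In mural-like cells of Clec7aKO replicate 4, Ier2 was at 499 CPM (280 to 304) and Jund at 2577 (1288 to 1429).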

How the results depend on the processing

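In microglia-like cells, SOD1 against nTg gave 4 members lower and SOD1_Clec7aKO against Clec7aKO 5. Scaling by library size alone gave 9 and 9, cluster 0 alone 0 and 0, only the groups compared 7 in the first, libraries 13, 15 and 16 left out 7 in the first, and Xist as a covariate 2 in the first. DESeq2 gave 5 and 5, where 2681 and 4042 of all 16625 genes tested were lower. Counts in this section that have no share of all genes, here or above, show only how the calls moved. They are no result about the members alone. Leaving out 1 library each gave 2 to 4 (2 without nTg replicate 2) and 4 to 7. In astrocyte-like cells, where 7 and 9 were higher, Xist as a covariate gave 3 in the first, the mitochondrial share 2 in the second, cluster 14 alone 0 in the first, the microglia marker level as a covariate 0 and 0, and cells of low marker share 5 in the second; leaving out 1 library gave 4 to 8 and 9 to 10. With the marker covariate, which nearly follows the transgene, Junb, Fos, Egr1, Jund and Nr4a1 kept positive differences in both comparisons, while the differences in SOD1 against nTg turned to -0.29 (Atf3), -0.86 (Ier2) and -0.86 (Jun), and without Clec7a to -0.20 (Atf3), -0.33 (Ier2) and -1.03 (Jun). In cluster 14 Jund was -0.071 in SOD1 against nTg, and in low-marker cells Dusp1 was -0.45 without Clec7a. The cause of these changes was not tested. For SOD1_Clec7aKO against SOD1 in astrocyte-like cells, with 0 called, 2 were higher with libraries 13, 15 and 16 left out, 2 with the library number as a covariate, 2 without SOD1_Clec7aKO replicate 3 (range 0 to 2 on leaving out 1 library) and 7 with no filter.

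With no filter on low counts, calls appeared where there had been 0: 8 lower and 7 lower in ependymal-like cells in the 2 transgene comparisons, 5 and 2 lower in endothelial-like SOD1_Clec7aKO against Clec7aKO and against SOD1, 1 higher for the difference between the contrasts in astrocyte-like cells, and 1 and 2 higher in OPC-like Clec7aKO against nTg and SOD1 against nTg. Every member had passed that filter in each class, so the unfiltered fits differ from the main ones only in the other genes they hold. Only the groups compared gave 1 lower in ependymal-like SOD1 against nTg, and removing more doublets 1 higher in mural-like SOD1 against nTg. The single OPC-like call (Junb) became 5 with no filter, 2 where libraries 1 to 4 formed a block and 3 where the library number entered the fit. It became 0 at resolution 0.5, with the lists among the variable genes, with the marker covariate, in low-marker cells and with libraries 13, 15 and 16 left out; leaving out 1 library gave 0 to 1. OPC-like SOD1 against nTg gave 1 with the library number as a covariate. With the replicate number as a block, OPC-like calls were 1 in SOD1 against nTg and 3 in SOD1_Clec7aKO against Clec7aKO; no other count moved by over 1.5 times under this pairing, and the numbers do not mark shared animals.

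The share of microglia-like cells with a UMI depends on depth. At 1000 UMIs it was 73.9% for Fos, 78.2% for Jun, 87.3% for Junb, 80.1% for Jund, 70.2% for Egr1, 66.9% for Atf3, 60.9% for Ier2, 13.9% for Nr4a1 and 59.95% for Dusp1. Unthinned it was 77.2% for Fosb, 89.4% for Atf3, 89.5% for Ier2, 42.1% for Nr4a1 and 89.4% for Dusp1. Over the counts of calls and shares, 945 alternative values kept their side within 1.5 times or 1 SD, 23 rose, 22 fell and 14 moved.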
